A study of Homo sapiens with 6 samples.

Results

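To explore how immediate-early genes of the EGR, IER, KLF and NR4A families were expressed after interleukin-1β (IL-1β) silencing in oral cancer cells, every probe set with 1 gene symbol among EGR1, EGR2, EGR3, IER2, IER3, IER5, KLF2, KLF6, KLF10 and NR4A1 was taken. This gave 18 probe sets of the 54675 on the array, a probe set being a group of short probes for 1 transcript. They covered 9 of the 10 genes. EGR2 had none under its symbol, alone or beside others, so its expression was not analysed here.

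Cal27 cells, a cell line from a human tongue squamous cell carcinoma, were measured on Affymetrix Human Genome U133 Plus 2.0 arrays. They carried a lentiviral short hairpin RNA against IL-1β (LV-shIL-1β, 3 arrays) or a scrambled hairpin (LV-shNC, 3 arrays). Both groups are described as stable cells selected with puromycin at 2 µg/mL over 2 weeks, in medium with serum, and the labels name no clone. No source used here says that the 3 arrays within a group are separate cultures, so the p-values rest on a spread between arrays that may be technical only. The single time point follows weeks of selection, so no acute stimulus was measured.

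Immediate-early genes are transcribed within minutes of a growth factor, cytokine or stress signal, without new protein synthesis, and their mRNAs are short-lived. Many are switched on when the kinase ERK acts on ternary complex factors bound with serum response factor (SRF) at CArG boxes, or when CREB acts at cyclic AMP response elements, while IER3 is also a target of NF-κB. Most of the genes described here encode transcription factors that pass the signal on to later genes, and squamous cells express several of them at a steady level.

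The promoters of EGR1 and IER2 are shown because these genes shared 1 high LV-shNC array but differed in their CArG boxes. Each sequence is the 250 bases before the start site in RefSeq (GRCh38.p14), 5′ to 3′, at chr5:138465229-138465478 on the plus strand for EGR1 and chr19:13150161-13150410 on the plus strand for IER2. Capitals mark CArG boxes and CGTCA, the core of the cyclic AMP response element, searched on both strands.
EGR1: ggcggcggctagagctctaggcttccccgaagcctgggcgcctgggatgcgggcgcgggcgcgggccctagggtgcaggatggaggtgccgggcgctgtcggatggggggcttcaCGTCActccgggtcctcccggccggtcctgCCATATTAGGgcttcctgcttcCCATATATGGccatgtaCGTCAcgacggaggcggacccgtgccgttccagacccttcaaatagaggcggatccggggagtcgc
IER2: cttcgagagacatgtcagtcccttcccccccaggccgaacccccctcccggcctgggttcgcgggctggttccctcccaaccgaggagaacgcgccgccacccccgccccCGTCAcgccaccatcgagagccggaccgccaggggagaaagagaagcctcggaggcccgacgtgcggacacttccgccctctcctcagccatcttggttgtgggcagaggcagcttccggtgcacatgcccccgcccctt
The EGR1 window held 2 CArG boxes, starting 105 and 83 bases before the start site, and CGTCA at 135 and 66 bases before it. The IER2 window held no CArG box, 1 CGTCA at 140 bases before the start site, and 3 GC boxes (GGGCGG). Of 35116 promoter windows of this length in the table, 1.16% held a CArG box, 21.2% held CGTCA and 42.6% held GGGCGG. The set had 10 windows used, from 7 genes, and 2 of the 10 held a CArG box (those of EGR1 and of 1 EGR2 start site), 3 held CGTCA and 6 held GGGCGG. A match describes letters in this window and no binding was measured.

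IL1B, the targeted gene, was lower in LV-shIL-1β on every array. Its probe set 205067_at gave signals of 2677, 2611 and 2494 in LV-shNC and 1569, 1569 and 1596 in LV-shIL-1β, a log2 change of -0.72 ± 0.04 (SE, adjusted p = 2.46e-05). Signals are the deposited linear intensities throughout, changes are LV-shIL-1β minus LV-shNC on the log2 scale, and adjusted p-values are from limma with Benjamini-Hochberg adjustment over all probe sets tested. Array medians lay between 18.4 and 18.9 and arrays of a group correlated at 0.9948 to 0.997. Of 10 squamous epithelial markers 7 had a probe set under their symbol alone, and all 7 had one above the low-signal filter described next. Summed signals over the list were 29108 to 30012 in LV-shNC and 26976 to 27185 in LV-shIL-1β, where KRT5, KRT14 and KRT16 fell. Of 8 fibroblast markers 5 were kept, with sums of 438.1 to 470.8 against 336.0 to 351.8, and COL1A2 and LUM fell. Of 9 leukocyte markers only CD14 was kept, and it rose, while PTPRC lay below the filter, and the sums were 152.9 to 160.6 against 165.7 to 169.8. Of 6 endothelial markers 2 were kept and neither passed the test, with sums of 135.9 to 138.9 against 126.5 to 132.6. The part of these shifts in the results was not tested.

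A probe set was kept for testing when at least 3 of the 6 arrays exceeded a signal of 18.6, the median of all values outside the array controls. This kept 16 of the 18 probe sets of the set, from 8 genes, and 27566 in all. None of the 16 passed the limma test at an adjusted p of 0.05, with 0 higher and 0 lower. Over all kept probe sets 7.05% passed, 3.68% higher and 3.37% lower. At an unadjusted limma p under 0.05 there were 4 of 16, against 22.6% of all kept probe sets. The methods' t-test gave 0 after adjustment, where 106 of the 27566 kept probe sets were called higher and 161 lower. Before adjustment it gave 2, and the share over all kept probe sets was not counted for that. The median change of the 16 was 0.06, against 0.01 over all kept probe sets, and the changes ran from -0.25 to 0.23. All 16 intervals (95%) lay within 1.5-fold in either direction. In a bulk RNA sample, fewer cells that express a gene and less of its RNA per cell cannot be told apart.

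**Figure D1:**
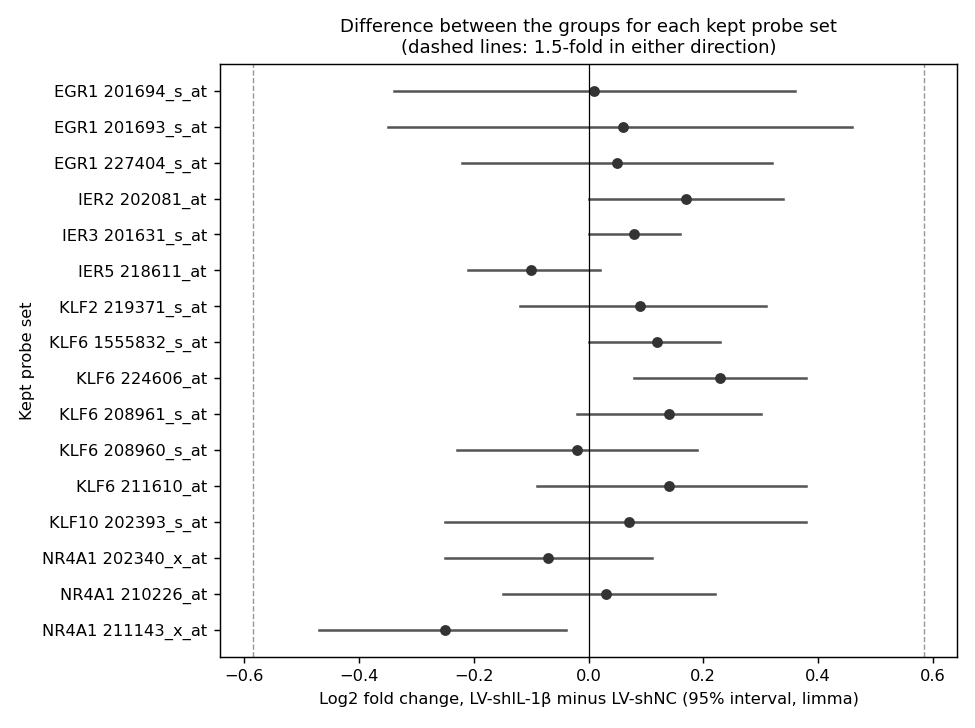
Log2 change (LV-shIL-1β minus LV-shNC) of each of the 16 kept probe sets with its 95% limma interval. Every interval lies between the dashed lines at 1.5-fold, and the points run from -0.25 for NR4A1 211143_x_at to 0.23 for KLF6 224606_at.

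The groups did not overlap for 3 of the 16 probe sets, against 27.9% of all kept probe sets. In 2 of these, both of KLF6, every LV-shIL-1β array was above every LV-shNC array, against 15.3% of all kept probe sets, and in the third, of NR4A1, every LV-shIL-1β array was below. The change was positive for 12 probe sets and negative for 4, and 53.2% of all kept probe sets had a positive change.

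**Figure D2:**
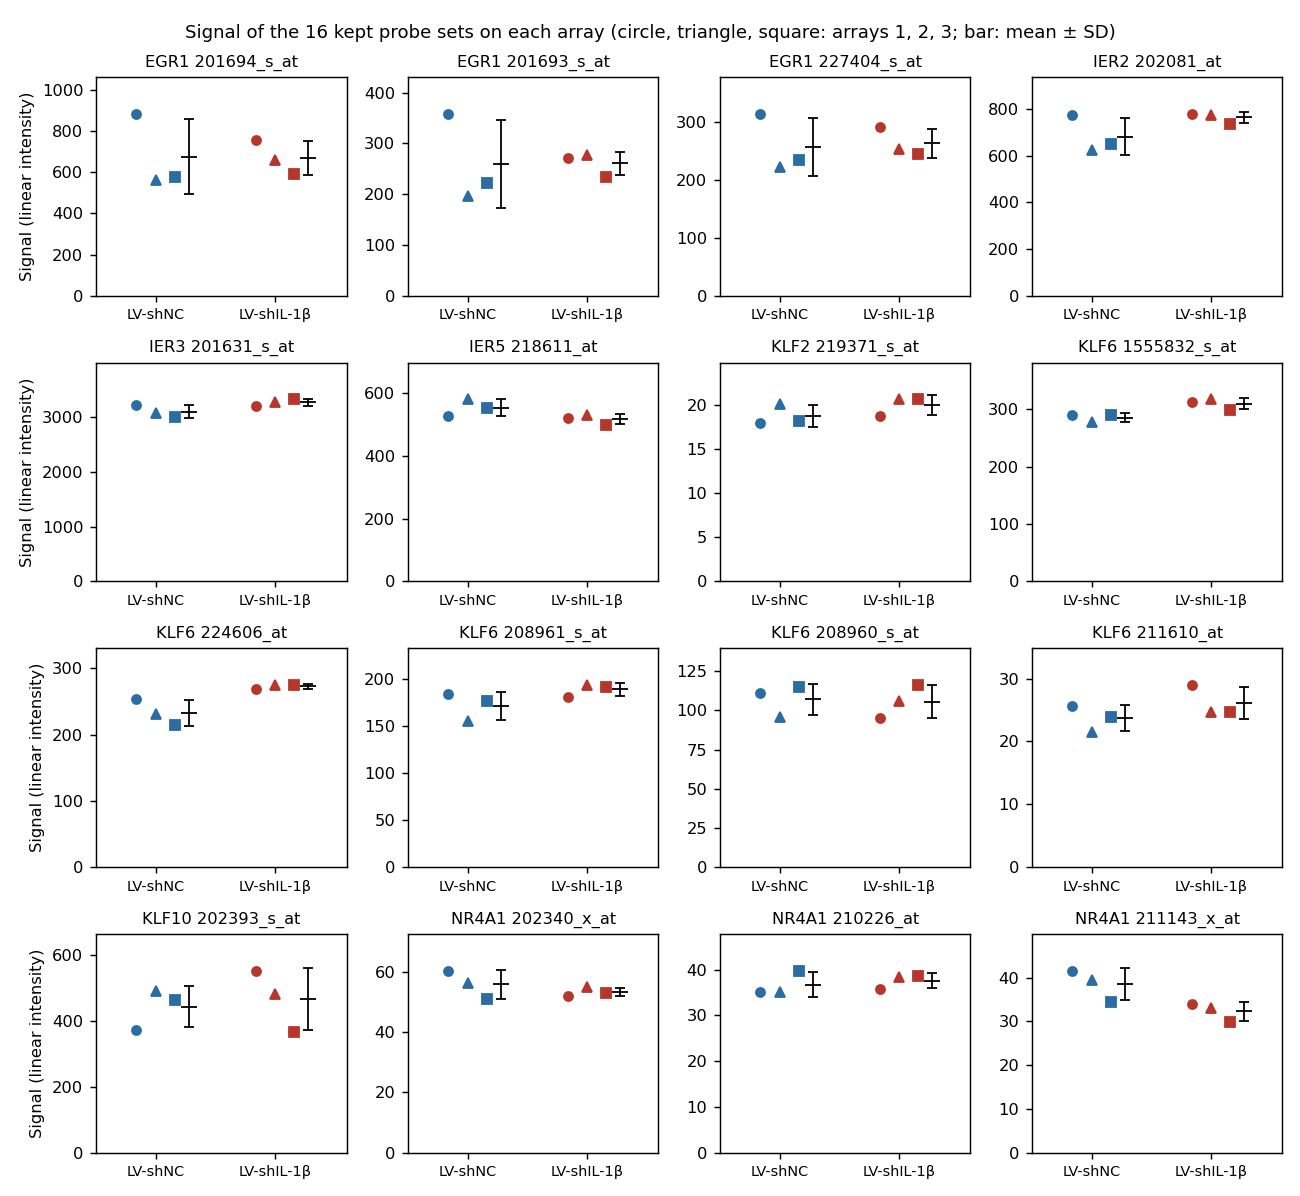
Signal (linear intensity, each axis from 0) of the 16 kept probe sets on the 3 LV-shNC and 3 LV-shIL-1β arrays, with mean ± SD. The EGR1 panels show LV-shNC array 1 above the other LV-shNC arrays, and the KLF6 224606_at panel shows groups that do not overlap.

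EGR1 encodes a zinc-finger transcription factor that growth factors induce through ERK and SRF. Its probe set 201694_s_at gave 884.0, 563.7 and 577.1 on the LV-shNC arrays and 756.9, 659.3 and 591.2 on the LV-shIL-1β arrays. All LV-shIL-1β values lay inside the range of LV-shNC, whose first array was far above the other two. The means were 674.9 ± 181.2 and 669.1 ± 83.3 (SD, n = 3), and the change was 0.01 ± 0.16 (SE, adjusted p = 0.973, limma), which turned to -0.01 when arrays were centred on their medians. The interval allowed a fold of 0.793 to 1.28.

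The second EGR1 probe set, 201693_s_at, gave 358.7, 196.8 and 222.4 in LV-shNC and 272.0, 276.5 and 234.7 in LV-shIL-1β. Again the first LV-shNC array was the highest of the 6, and the others of its group were the lowest. Its change was 0.06 ± 0.18 (adjusted p = 0.89, limma), with a fold interval of 0.784 to 1.38. The third, 227404_s_at, gave 314.1, 222.8 and 233.4 in LV-shNC and 291.6, 252.5 and 245.1 in LV-shIL-1β. The order was alike, with a change of 0.05 ± 0.12 (adjusted p = 0.856, limma) and a fold interval of 0.857 to 1.25. The sign of all 3 changes depended on single arrays. Without LV-shNC array 1 they were 0.22, 0.32 and 0.20 (adjusted p = 0.196, 0.079 and 0.202, limma), and without LV-shNC array 2 they were -0.10, -0.12 and -0.05. They were also below 0 without LV-shNC array 3 (-0.08, -0.03 and -0.01), and without LV-shIL-1β array 1 201694_s_at and 227404_s_at were (-0.08 and -0.03).

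EGR3, a related zinc-finger factor, had 1 probe set, 206115_at, and it was not kept. Its signals were 10.0, 9.82 and 8.83 in LV-shNC and 12.3, 9.12 and 9.85 in LV-shIL-1β. None reached the filter, so no test was made.

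Among the IER genes, IER2 encodes a nuclear protein induced by serum and growth factors. Its probe set 202081_at gave 772.3, 623.3 and 647.7 in LV-shNC and 779.5, 773.1 and 736.1 in LV-shIL-1β. Only the first LV-shNC array reached into the LV-shIL-1β range. The change was 0.17 ± 0.07 (adjusted p = 0.211, limma), a fold of 1.12 with an interval of 1.00 to 1.26. Without LV-shNC array 1 it was 0.26 and passed the test (adjusted p = 0.021, limma). The change passed under no other alternative run. The adjusted p was 0.0947 with arrays weighted by their quality and 0.486 without LV-shNC array 2 (limma).

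IER3 encodes an NF-κB target that modulates cell survival. Its probe set 201631_s_at gave 3235, 3074 and 3001 in LV-shNC and 3215, 3277 and 3333 in LV-shIL-1β. The groups overlapped through the first array of each. The means were 3103 ± 119.6 and 3275 ± 58.7 (SD, n = 3), and the change was 0.08 ± 0.04 (adjusted p = 0.23, limma) with a fold interval of 0.999 to 1.12. The signal was among the steadiest, since only 10.4% of kept probe sets had a smaller within-group SD (0.043, log2).

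IER5, whose protein takes part in the response to stress and heat shock, was the only IER gene with a negative change. Its probe set 218611_at gave 526.8, 580.0 and 552.4 in LV-shNC and 521.2, 528.9 and 499.2 in LV-shIL-1β. The groups overlapped by a narrow margin, between the first LV-shNC array and the second LV-shIL-1β array. The change was -0.10 ± 0.05 (adjusted p = 0.295, limma), with a fold interval of 0.863 to 1.01.

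KLF6 encodes a zinc-finger factor of the Krüppel-like family, described as a growth suppressor, and it had 5 probe sets, all kept. Probe set 224606_at gave 252.9, 230.7 and 214.7 in LV-shNC and 268.4, 274.1 and 274.8 in LV-shIL-1β. The groups did not overlap, and the LV-shIL-1β arrays lay close together. The means were 232.7 ± 19.2 and 272.4 ± 3.53 (SD, n = 3), and the change of 0.23 ± 0.07, a fold of 1.17 with an interval of 1.06 to 1.30, did not pass after adjustment (unadjusted p = 0.00588, adjusted p = 0.0678, limma). That was the smallest adjusted p of the 16. The change passed without LV-shNC array 1 (0.29, adjusted p = 0.0301, limma) and with arrays weighted by their quality (0.26, adjusted p = 0.024, limma). It passed under no other alternative run. The adjusted p was 0.2 without LV-shIL-1β array 2 and 0.19 without LV-shNC array 3 (limma), and 0.207 by the methods' t-test.

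Probe set 1555832_s_at gave 289.2, 276.8 and 290.0 in LV-shNC and 312.9, 317.1 and 298.5 in LV-shIL-1β. These groups did not overlap either, and the change was 0.12 ± 0.05 (adjusted p = 0.215, limma). Probe set 208961_s_at gave 183.4, 154.8 and 176.4 against 181.2, 193.5 and 191.7, with a change of 0.14 ± 0.07 (adjusted p = 0.285, limma). Its groups overlapped through the first array of each. Probe set 211610_at gave 25.7, 21.5 and 23.9 against 29.0, 24.7 and 24.7, with a change of 0.14 ± 0.10 (adjusted p = 0.461, limma), and its groups overlapped through LV-shNC array 1. The fifth, 208960_s_at, gave 111.0, 96.0 and 114.8 against 94.9, 105.9 and 116.3. Here the groups covered nearly the same range, with a change of -0.02 ± 0.09 (adjusted p = 0.915, limma), so the probe sets of KLF6 differed in sign while none passed the test.

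KLF10 encodes a transcriptional repressor known as a TGF-β inducible early gene. Its probe set 202393_s_at gave 372.8, 490.4 and 463.7 in LV-shNC and 552.0, 479.9 and 367.1 in LV-shIL-1β. The LV-shIL-1β arrays spanned the whole LV-shNC range, and the first LV-shNC array was the lowest of its group, opposite to EGR1. The change was 0.07 ± 0.14 (adjusted p = 0.827, limma), with a fold interval of 0.841 to 1.30. It was -0.05 without LV-shNC array 1, -0.07 without LV-shIL-1β array 1 and 0.23 without LV-shIL-1β array 3.

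KLF2, best known as a flow-induced factor of endothelium, was near the filter. Its probe set 219371_s_at gave 17.9, 20.1 and 18.1 in LV-shNC and 18.7, 20.6 and 20.6 in LV-shIL-1β, and 4 of the 6 arrays exceeded the filter. The groups overlapped, and the change was 0.09 ± 0.10 (adjusted p = 0.614, limma). The other, 226646_at, gave 12.8, 11.7 and 11.4 against 10.6, 10.1 and 13.1 and was not kept.

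NR4A1 encodes an orphan nuclear receptor (Nur77) that is induced with the EGR genes. Probe set 211143_x_at gave 41.6, 39.5 and 34.5 in LV-shNC and 33.9, 33.1 and 29.9 in LV-shIL-1β. Every LV-shIL-1β array was below every LV-shNC array, the nearest pair being 33.9 and 34.5. The change was -0.25 ± 0.09, a fold of 0.838 with an interval of 0.724 to 0.971 (unadjusted p = 0.0234, adjusted p = 0.145, limma). Its name ends in _x_at, which marks probes open to cross-hybridisation.

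The other NR4A1 probe sets differed less. Probe set 202340_x_at gave 60.4, 56.4 and 50.9 in LV-shNC and 52.0, 54.9 and 53.0 in LV-shIL-1β, with a change of -0.07 ± 0.08 (adjusted p = 0.682, limma). Probe set 210226_at gave 35.1, 35.2 and 39.8 against 35.7, 38.4 and 38.6, with a change of 0.03 ± 0.08 (adjusted p = 0.849, limma). In both the groups overlapped, and the 3 probe sets of the gene did not share a sign.

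Spread between arrays of a group set these genes apart from each other. The within-group SD (log2) of the 3 EGR1 probe sets was 0.288, 0.336 and 0.212, and 98.6%, 99.4% and 94.4% of kept probe sets had a smaller one. That of KLF10 was 0.258 (97.4%), between those of the EGR1 probe sets, while KLF6 1555832_s_at had the smallest, 0.042 (9.7%). The median over the 16 was 0.108, against 0.092 over all kept probe sets.

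The LV-shNC array 1 stood apart for several of these genes. It lay above its group's mean by 0.42, 0.52 and 0.31 (log2) for the EGR1 probe sets and by 0.19 for IER2. For 10 of the 16 probe sets it was the highest of its group and for 4 the lowest. Several of these share a gene, and the share over all kept probe sets was not counted, so these numbers only describe the set. FOS, the AP-1 subunit encoded by another SRF-driven gene, was also high there, by 0.53. CCN2, a matricellular gene, was high by 0.71, whereas KLF10 was low by 0.24. On LV-shIL-1β array 1 the EGR1 probe sets lay above their group's mean by 0.19, 0.06 and 0.15, and IER2 by 0.03. There FOS lay above by 0.43, CCN2 by 0.07 and KLF10 by 0.26. ACTB 3′ to 5′ log2 ratios, a measure of RNA integrity, were 0.30, 0.39 and 0.55 in LV-shNC and 0.44, 0.41 and 0.33 in LV-shIL-1β, so the first LV-shNC array had the lowest. The part of RNA integrity in these deviations was not tested. In a fit with weights, this array received 0.681 and LV-shIL-1β array 1 received 0.54, the lowest of the 6. CCN2, at 449.3, 212.7 and 217.0 in LV-shNC and 360.8, 346.9 and 322.2 in LV-shIL-1β, did not pass with all arrays (0.32 ± 0.23, adjusted p = 0.461, limma) and passed without LV-shNC array 1 (adjusted p = 0.00105, limma).

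**Figure D3:**
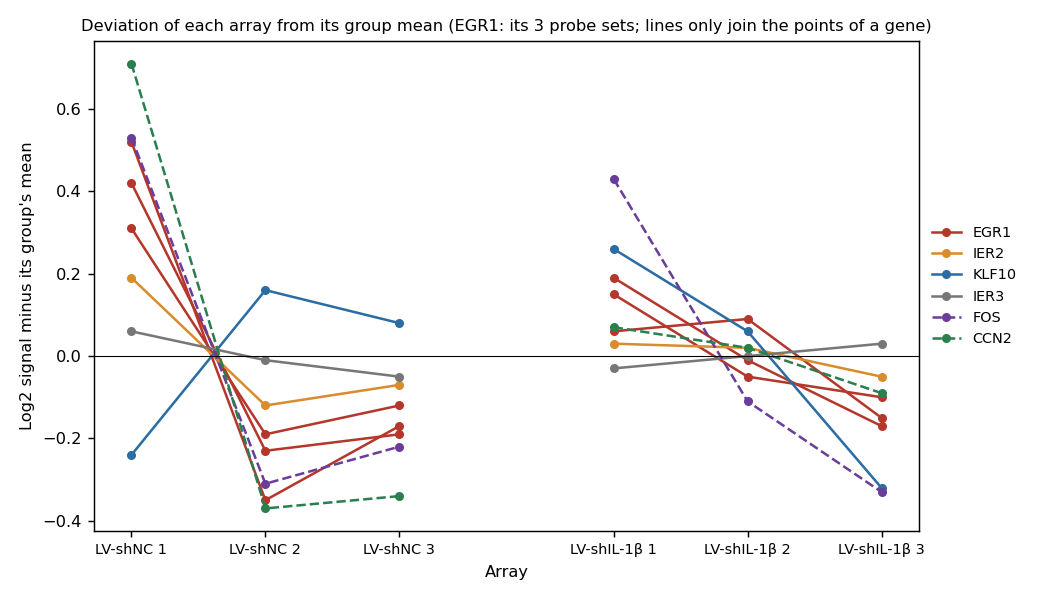
Deviation of each array from the mean of its own group (log2 signal) for EGR1 (3 probe sets), IER2, IER3, KLF10, FOS and CCN2, with lines that only join the points of a gene. LV-shNC 1 is 0.31 to 0.52 above its group for EGR1, 0.53 above for FOS and 0.24 below for KLF10.

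FOS shares the ERK and SRF inputs of EGR1, and its change passed the test. FOS (209189_at) gave 66.1, 37.0 and 39.3 in LV-shNC and 123.7, 85.2 and 73.1 in LV-shIL-1β. The groups did not overlap, although the first array was the highest in each. FOS rose by 1.00 ± 0.23 (log2, adjusted p = 0.0314, limma). That call was lost without LV-shNC array 2, LV-shNC array 3, LV-shIL-1β array 1 or LV-shIL-1β array 2, with an adjusted p of at most 0.108. It was also lost in limma without its trend and by the methods' t-test, with an adjusted p of at most 0.253. The within-group SD (log2) of FOS was 0.426, and 99.9% of kept probe sets had a smaller one.

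Since FOS and EGR1 deviated alike on LV-shNC array 1, the FOS signal was divided by the EGR1 signal within each array. This comparison was chosen after the values were seen, and only its difference between groups can be read, because probe sets differ in brightness. With EGR1 201693_s_at the log2 ratio was -2.44, -2.41 and -2.50 in LV-shNC and -1.14, -1.70 and -1.68 in LV-shIL-1β. Here LV-shNC array 1 lay inside the range of its group. With 201694_s_at the LV-shNC ratios were -3.74, -3.93 and -3.88, and with 227404_s_at they were -2.25, -2.59 and -2.57, so in both array 1 stayed above the others of its group. The differences between the groups were 0.95 with 201693_s_at, 0.99 with 201694_s_at and 0.95 with 227404_s_at, with no overlap. FOS had been called, and the EGR1 changes with all 6 arrays were 0.01 to 0.06, with wide intervals. These differences therefore restate the 2 genes' own changes and no test is given. Leaving out any array kept the difference between 0.76 and 1.07.

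**Figure D4:**
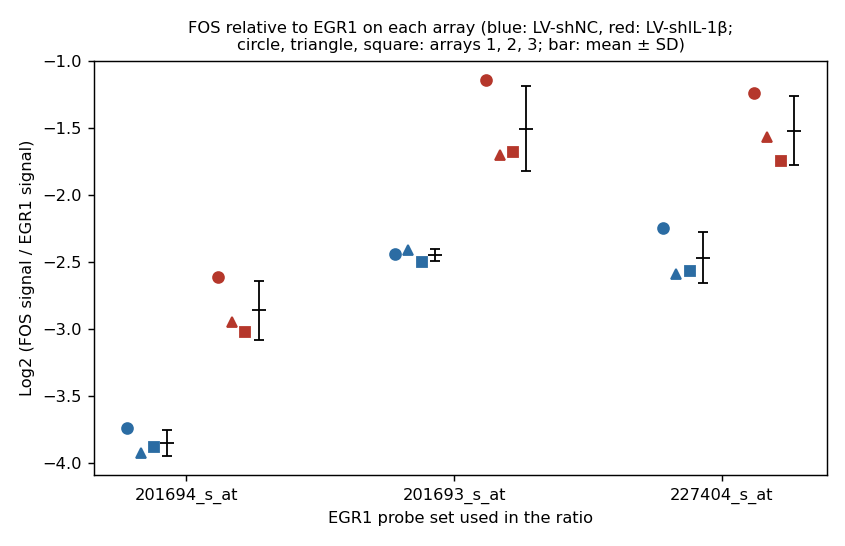
Log2 ratio of the FOS signal to each of the 3 EGR1 probe sets on every array, with the mean ± SD of each group (LV-shNC blue, LV-shIL-1β red). In each set of points the LV-shIL-1β arrays lie above the LV-shNC arrays, by 0.95 to 0.99 between the means.

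The same ratios were formed for DUSP1, a phosphatase that inactivates MAP kinases, TRIB1, a pseudokinase, and JUN, the AP-1 partner of FOS. DUSP1 relative to EGR1 was higher in LV-shIL-1β by 0.67 to 0.72 and TRIB1 by 0.50 to 0.55, without overlap. The DUSP1 ratios used only probe set 201041_s_at, and the other kept probe sets of DUSP1 did not pass the limma test. JUN relative to EGR1 differed by 0.30 to 0.34, and 2 of its 3 ratios overlapped between groups. These genes had been seen to rise, so the values are likewise a description.

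Other immediate-early genes, a list of 38, had 33 kept genes, each represented by its brightest kept probe set. Of these 8 rose and 2 fell, against 3.68% and 3.37% of all kept probe sets, with a median change of 0.11, against 0.01 over all kept probe sets. The list was chosen with earlier results known. The 8 were FOS, FOSB, JUN, TRIB1, IL6, CXCL2, PTGS2 and PPP1R15A. There were 7 without LV-shNC array 1, 5 without LV-shNC array 3, LV-shIL-1β array 1 or LV-shIL-1β array 3, and 4 without LV-shNC array 2 or LV-shIL-1β array 2.

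IL6, an inflammatory cytokine, showed the largest rise of these, with 193.0, 127.8 and 149.3 in LV-shNC and 312.8, 339.2 and 309.2 in LV-shIL-1β (1.05 ± 0.12, adjusted p = 0.00159, limma). TRIB1 gave 118.0, 100.0 and 114.6 against 166.2, 164.8 and 157.2 (0.56 ± 0.07, adjusted p = 0.00252, limma). JUN (201464_x_at) gave 666.5, 601.4 and 656.2 against 851.2, 844.0 and 768.5 (0.36 ± 0.06, adjusted p = 0.00646, limma). In these 3 genes the groups did not overlap, and leaving out any array kept the call. Of the other JUN probe sets 201466_s_at passed (0.51) while 201465_s_at (0.34) and 213281_at (0.24) did not. CXCL2, a neutrophil-attracting chemokine, rose by 0.61 ± 0.06 (adjusted p = 0.00061, limma).

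Most of the remaining calls depended on single arrays. FOSB, a FOS relative, gave 18.8, 19.7 and 19.1 in LV-shNC and 25.0, 28.5 and 24.0 in LV-shIL-1β and rose by 0.43 ± 0.10 (adjusted p = 0.028, limma), a call lost without any 1 of the 6 arrays (adjusted p at most 0.113). PTGS2, the inducible cyclooxygenase, rose by 0.34 ± 0.07 (adjusted p = 0.0224, limma), and only leaving out LV-shNC array 3 kept that call. PPP1R15A, a stress-induced phosphatase subunit, rose by 0.34 ± 0.07 (adjusted p = 0.0227, limma), a call lost without LV-shNC array 2 or 3 or LV-shIL-1β array 2 or 3, and its other probe set changed by 0.31 and did not pass. SIK1, a salt-inducible kinase, gave 393.9, 420.0 and 429.1 against 313.8, 338.7 and 293.2 and fell by 0.40 on the log2 scale (adjusted p = 0.0065, limma), a call that no left-out array removed, while its other kept probe set changed by -0.05 and did not pass. SGK1, a serum-induced kinase, fell by 0.14 (adjusted p = 0.0405, limma), a call kept only without LV-shIL-1β array 1 and lost after quantile normalization.

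The nearest relatives of the EGR and NR4A genes were dim. EGR4, NR4A2, NR4A3 and ARC, a neuronal activity gene, had no kept probe set. The brightest EGR4 probe set, 231575_at, gave 17.4, 14.8 and 14.1 in LV-shNC and 14.5, 12.0 and 14.5 in LV-shIL-1β, and the highest NR4A2 signal was 18.8. JUNB, another AP-1 subunit, gave 115.7, 115.2 and 94.7 against 125.5, 122.3 and 117.9 and did not pass (0.17 ± 0.08, adjusted p = 0.263, limma).

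The other Krüppel-like factors moved in both directions. Of 14 such genes 10 were kept, each represented by its brightest kept probe set. Of these 1 rose and 3 fell, against 3.68% and 3.37% of all kept probe sets. The median change was -0.10, against 0.01. This list too was chosen with earlier results known. KLF4, a factor of epithelial barrier differentiation, gave 499.6, 503.6 and 522.1 in LV-shNC and 740.9, 625.3 and 640.3 in LV-shIL-1β and rose by 0.39 ± 0.06 (adjusted p = 0.00733, limma), while its other kept probe set changed by 0.18 and did not pass. KLF13, a factor known from lymphocytes, gave 236.7, 234.1 and 244.4 against 165.2, 178.5 and 184.7 and fell by 0.44 (adjusted p = 0.003, limma), while its other kept probe set, 219878_s_at, changed by -0.30 and did not pass (adjusted p = 0.0956, limma). The groups did not overlap for the KLF4 and KLF13 probe sets that passed.

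KLF12, a repressor, gave 38.0, 40.0 and 48.5 against 28.8, 24.2 and 32.1 and fell by 0.57 (adjusted p = 0.0261, limma), a call lost without LV-shNC array 2 or 3 or LV-shIL-1β array 1 or 2. KLF7 fell by 0.25 (adjusted p = 0.0282, limma), a call lost without LV-shNC array 1 or 3 or LV-shIL-1β array 2 or 3, and of its other kept probe sets only 238482_at passed (-0.38). The number that fell was 1 without LV-shNC array 3 or LV-shIL-1β array 2.

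**Figure D5:**
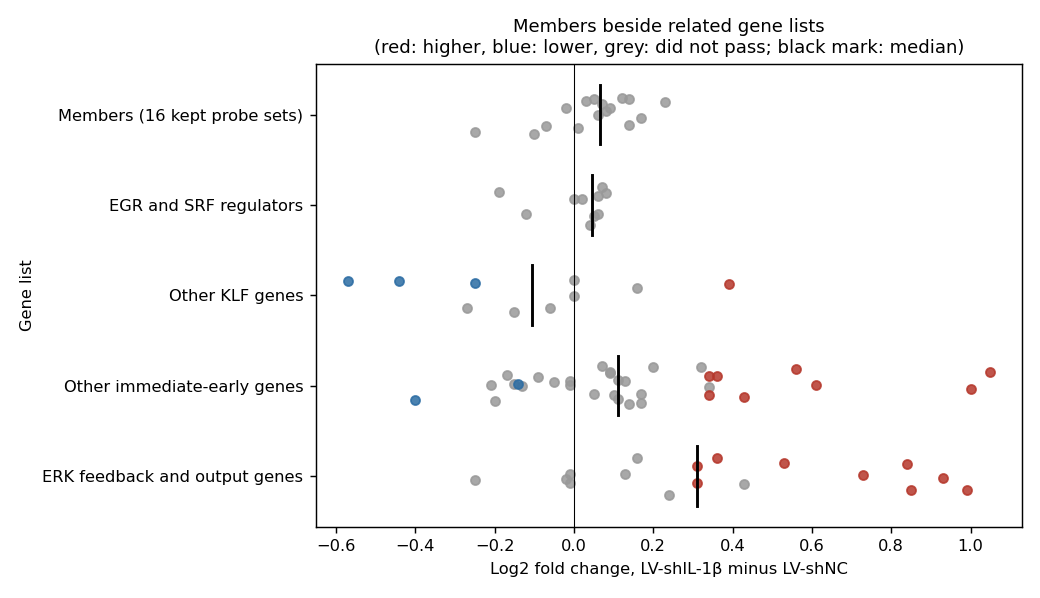
Log2 change of the 16 kept probe sets of the set and of the genes of 4 related lists (1 probe set a gene), coloured by the limma test, with black marks at the medians of 0.06, 0.04, -0.10, 0.11 and 0.31 from top to bottom. No point of the set or of the EGR and SRF regulators is coloured, while 9 ERK feedback and output genes are red.

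Of 12 regulators of EGR and SRF activity, a list chosen with earlier results known, 10 were kept, each represented by its brightest kept probe set. By limma 0 rose and 0 fell, against 3.68% and 3.37% of all kept probe sets, with a median change of 0.04. NAB1, a corepressor of EGR proteins, gave 336.8, 338.0 and 353.0 in LV-shNC and 318.6, 314.9 and 313.5 in LV-shIL-1β. Its groups did not overlap, and the change of -0.12 ± 0.05 did not pass (adjusted p = 0.182, limma). NAB2, a corepressor that EGR factors induce, gave 72.5, 78.2 and 68.5 against 71.4, 78.1 and 76.2 (0.04 ± 0.07, adjusted p = 0.781, limma). SRF itself gave 122.2, 104.2 and 114.9 against 105.4, 118.7 and 121.9 (0.02 ± 0.08, adjusted p = 0.917, limma).

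Of 18 ERK feedback and output genes 17 were kept, each represented by its brightest kept probe set. By limma 9 rose and 0 fell, against 3.68% and 3.37% of all kept probe sets. The median change was 0.31, against 0.01. This list was also chosen with earlier results known, so its counts and median only describe it. The 9 included DUSP1, DUSP4, DUSP5, DUSP6, SPRY1, SPRED2 and ETV5, and without LV-shIL-1β array 2 there were 5. DUSP1 passed by 201041_s_at (0.73) while its other kept probe sets changed by 0.01 and 0.11 and did not pass. EREG, an EGF receptor ligand, rose by 0.99 ± 0.18 (adjusted p = 0.00977, limma), a call lost without LV-shIL-1β array 2 (adjusted p = 0.0597, limma), and its other kept probe set changed by 0.40 and did not pass. HBEGF, another such ligand, gave 102.7, 98.2 and 105.4 in LV-shNC and 173.3, 211.8 and 200.6 in LV-shIL-1β and rose by 0.93 ± 0.08 (adjusted p = 0.000292, limma). DUSP4, a nuclear MAP kinase phosphatase, gave 205.3, 183.2 and 178.6 against 315.7, 377.0 and 329.5 and rose by 0.85 ± 0.08 (adjusted p = 0.000451, limma). EGR1, which ERK signalling also induces, had changes of 0.01 to 0.06 on the same arrays. The limma intervals were -0.34 to 0.36 for 201694_s_at, -0.35 to 0.46 for 201693_s_at and -0.22 to 0.32 for 227404_s_at. Each included the list's median of 0.31. The EGR1 changes were 0.22, 0.32 and 0.20 without LV-shNC array 1, and -0.10, -0.12 and -0.05 without LV-shNC array 2. A difference between EGR1 and this list was not tested.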

How the data were processed

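Total RNA of Cal27 cells (6 µg per array, 3 arrays per group, grouped by the labels) was hybridised to 6 Affymetrix arrays. The authors deposited linear intensity values per probe set. The submitters' notes name MAS5, without version, and the sources used here give none of its settings. In all, 4.43% of values ended on the commonest steps of a sixth (tolerance 0.0001). The share expected by chance was not computed, so this value cannot decide whether the arrays were processed together or by MAS5 alone. No detection calls were used, and 0 value columns were left unassigned.

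Gene names came from the platform annotation, updated through RefSeq (GRCh38.p14), where 41043 of 41097 probe sets with a single symbol matched. Values were log2-transformed without further normalization. Controls (62) were left out, and 27566 of 54613 probe sets were kept when at least 3 arrays exceeded 18.6. The group comparison used limma 3.58.1 (R 4.3.3, trend, two-sided), with Benjamini-Hochberg adjustment at 0.05. The study's methods name a fold and a detection P for the arrays and Student's t-test for its data in general, which was run as an alternative (the methods' t-test). The script was tested on simulated data. Precision is limited by the number of arrays.

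The genes and lists were chosen with earlier results of these data known. Named were all probe sets of the set, IL1B, the called genes of the immediate-early list, the 3 largest changes per direction of each other list, and FOS, FOSB, JUN, JUNB, EGR4, NR4A2, NR4A3, NAB1, NAB2 and SRF in any case. CCN2, ARC, PTPRC, the ratios to EGR1 and the other ERK genes were added after their values were seen. Alternatives were quantile normalization, median centring, no filter, a filter on all 6 arrays, a pseudocount of 16, no trend, array weights, a replicate block, the t-test and leaving out each array.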

Additional observations from a re-analysis of the deposited data

How the results depend on the processing

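Under the 15 alternatives, 222 of 241 changes of single probe sets of the set kept their direction and their side of the threshold, 3 passed it and 16 turned sign, all of the latter within 0.12 of 0. EGR1 201694_s_at was -0.01 after median centring and ran from -0.10 to 0.22 when single arrays were left out, 201693_s_at from -0.12 to 0.32 and 227404_s_at from -0.05 to 0.20. KLF6 208960_s_at was 0.01 with array weights and ran from -0.10 to 0.05, and KLF10 was -0.04 with array weights and ran from -0.07 to 0.23. The number of probe sets, and of genes, of the set called higher was 0, but 1 with array weights and 0 to 2 when single arrays were left out. The 2 (IER2 and KLF6) came without LV-shNC array 1. Of all 27566 kept probe sets 1631 were called higher with array weights and 586 without LV-shNC array 1. Of the other immediate-early genes 8 were called higher, against 5 with the replicate block, 0 by the methods' t-test and 4 to 7 when single arrays were left out. Of the same genes 2 were called lower, against 1 with quantile normalization, no filter, no trend or the replicate block, 0 by the methods' t-test and 1 to 3 when single arrays were left out. Of the other KLF genes 1 was called higher and 3 lower, against 0 and 0 by the methods' t-test, and 1 to 2 were lower when single arrays were left out. Of the ERK genes 9 were called higher, against 3 by the methods' t-test and 5 to 9 when single arrays were left out, and 1 was called lower (SPRY2) with array weights. With a pseudocount of 16 the difference of the FOS to EGR1 ratio fell from 0.99 to 0.79 (201694_s_at). It fell from 0.95 to 0.75 with 201693_s_at and with 227404_s_at. The ratio itself was chosen after seeing the data. The cause of these changes was not tested.

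Over all kept probe sets 1014 were called higher and 929 lower, against 886 and 1189 after median centring, 951 and 1087 after quantile normalization, 1631 and 1196 with array weights, 746 and 753 without a filter, 681 and 667 without the trend and 106 and 161 by the methods' t-test. Same-numbered arrays of the groups did not deviate together (correlations over kept probe sets of -0.394, -0.112 and -0.214), and none correlated best with its own number. With the replicate block 255 were called higher and 313 lower, 0 of them in the set. The 6 arrays limit what these counts can show, and signals near 18.6, such as those of KLF2 and those of FOSB in LV-shNC, are close to the filter.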
